A study of Mus musculus with 20 samples.

Results

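The response of MLE12 cells to the intracellular domain of Notch1 (NICD1) is described here at 24 h after transfection, from all 7 arrays of that time. The series holds 20 arrays, of which 6 belong to 12 h and 7 to each of the later times. MLE12 is a line of mouse lung epithelium that resembles type II cells of the alveolus, immortalised with the SV40 large T antigen, and both groups were therefore made in cells that carry it. One group was transfected with the NICD1-pIRES-DsRed2 plasmid and the other with the empty vector (EV), each with Lipofectamine2000, so that both had received plasmid DNA and lipid. Each array set NICD1 RNA against EV RNA of the same time in opposite dyes, with NICD1 in Cy5 on 3 arrays (replicates 2, 3 and 5) and in Cy3 on 4 (replicates 1, 4, 6 and 7), and the series design calls the replicates independent. Transfection was transient and the RNA came from whole cultures. The sources used here give no share of cells that took up the plasmid, and untransfected cells were not analysed here.

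A value is a log2 ratio, NICD1 over EV, so that 1 unit is a change by a factor of 2, and a positive value means a higher RNA level with NICD1. The sources used here do not state the direction of the ratios. It is called likely because Nrarp and Hey1, both direct Notch targets, and Notch1 itself were above 0 on all 7 arrays, so the upward sign of Notch targets is no independent result. A ratio does not tell which of the 2 RNAs moved, and in bulk RNA fewer cells of a type and less RNA per cell cannot be told apart. Because no level is given, it could not be judged whether the markers of type II cells were expressed.

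Notch receptors are cut when a ligand on a neighbouring cell binds them. The released intracellular domain enters the nucleus, joins Rbpj and Mastermind proteins on DNA and turns on target genes such as the Hes and Hey repressors. In the lung, Notch signalling is known for its part in the choice between epithelial cell fates. Type I interferons are secreted proteins that cells make when sensors find foreign RNA or DNA. They bind a receptor shared by neighbouring cells, whose JAK kinases switch on a complex with STAT2 and Irf9, and this complex binds interferon-stimulated response elements in the promoters of antiviral genes. DNA that reaches the cytosol, transfected plasmids included, is known to induce the same genes.

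Each of the 7 arrays had between 37041 and 40068 values, with 11.4% to 18.1% missing, medians from -0.01 to 0.02 and SDs across rows from 0.642 to 0.791. As deposited, the 9 pairs of arrays with the same dye orientation correlated across genes at 0.166 to 0.258 and the 12 pairs of opposite orientation at -0.139 to 0.134. With the fitted dye effect taken off, the same-orientation pairs correlated over all genes at -0.109 to 0.119 and the opposite pairs at 0.184 to 0.399. The dye effect was fitted on these same 7 arrays, so taking it off in itself raises the opposite pairs and lowers the others. The later values therefore do not measure agreement between arrays. All of these are correlations across genes, which are not independent replicates. The dye effect of a gene did not pass for any gene (limma, lowest adjusted p = 0.175).

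At 24 h the fall was the larger side of the response. Of 17449 genes tested, 237 (1.36%) passed at an adjusted p under 0.05, with 41 higher (0.235%) and 196 lower (1.12%) with NICD1 than with EV. At so low a share, a short list in which no gene passed is not set apart from the rest. The median log2 ratio of the lower genes was -1.06 and that of the higher genes 0.85, while the median over all genes was 0.00. An absolute log2 ratio of at least 1 was reached by 105 lower and 14 higher genes. Of the 237 genes, 229 had the same sign on every array with a value and 236 had the same sign in both dye orientations. Leaving out replicate 2 took the count to 156 genes, 26 higher and 130 lower, and the count of higher genes was 24 without replicate 3 and 26 without replicate 6. In all 7 fits that left out 1 array, 141 genes passed, of which 122 were lower and 19 higher. Every gene named below as risen or fallen is among them unless a lost call is given beside it.

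**Figure D1:**
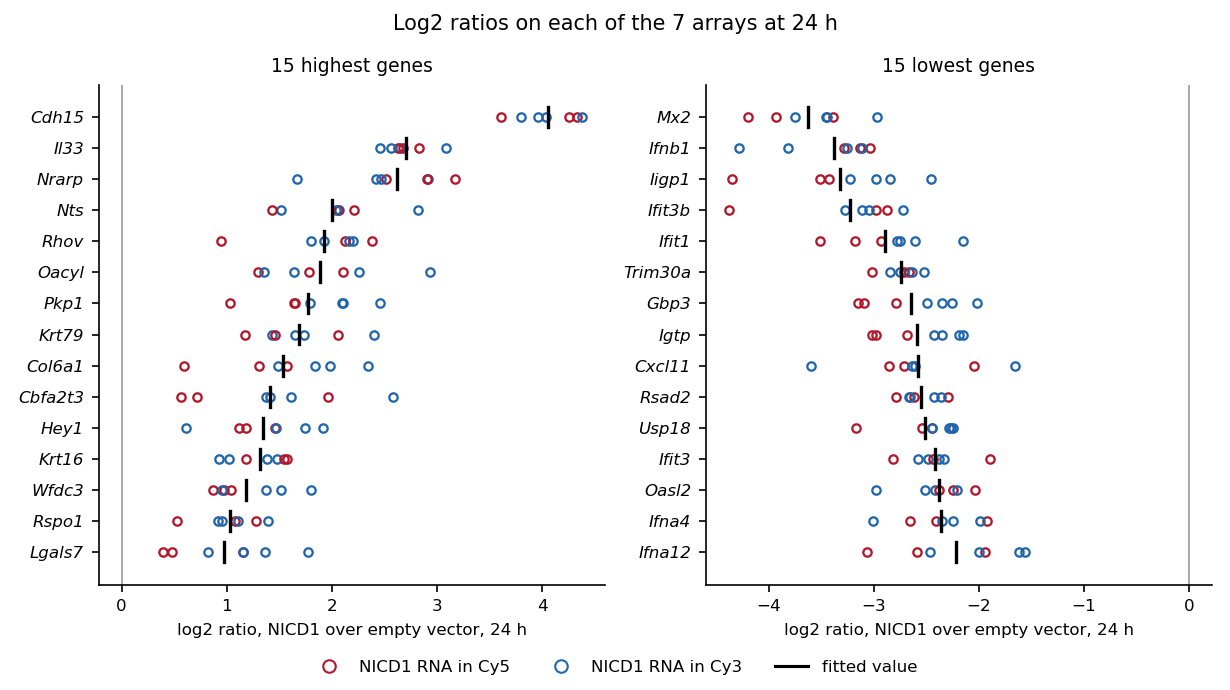
Log2 ratios of NICD1 over EV on each of the 7 arrays at 24 h (x axis) for the 15 highest (left) and 15 lowest genes (right) that had the same sign on every array, in red for arrays with NICD1 RNA in Cy5 and in blue for Cy3, with the fitted value as a bar. Cdh15 lies between 3.61 and 4.38 and Mx2 between -4.20 and -2.97. No array of these 30 genes crosses 0, which the choice of genes required.

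The 15 lowest genes were all genes known to be induced by interferon or interferon genes themselves. Mx2 (Entrez Gene 17858, chromosome 16), which encodes an antiviral GTPase of the dynamin type, had a lowest, median and highest value of -4.20, -3.46 and -2.97 over the 7 arrays. Its fitted log2 ratio was -3.62 ± 0.13 (SE, n = 7; adjusted p = 4.58e-05), a 12.3-fold lower level with NICD1. Ifnb1 (Entrez Gene 15977, chromosome 4), which encodes interferon beta, followed at -4.28, -3.26 and -3.04 and a fitted -3.38 ± 0.15 (SE, n = 7; adjusted p = 7.92e-05), 10.4-fold lower. All 7 arrays of both genes were below -2.9. Iigp1, an immunity-related GTPase that attacks the membrane around intracellular parasites, stood at -4.35, -3.23 and -2.46 with a fitted -3.32 ± 0.14 (SE, n = 7; adjusted p = 7.92e-05). The others in this set, Ifit3b, Ifit1, Trim30a, Gbp3, Igtp, Cxcl11, Rsad2, Usp18, Ifit3, Oasl2, Ifna4 and Ifna12, had fitted values between -3.23 and -2.22, and they are taken up with their families below.

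**Figure D2:**
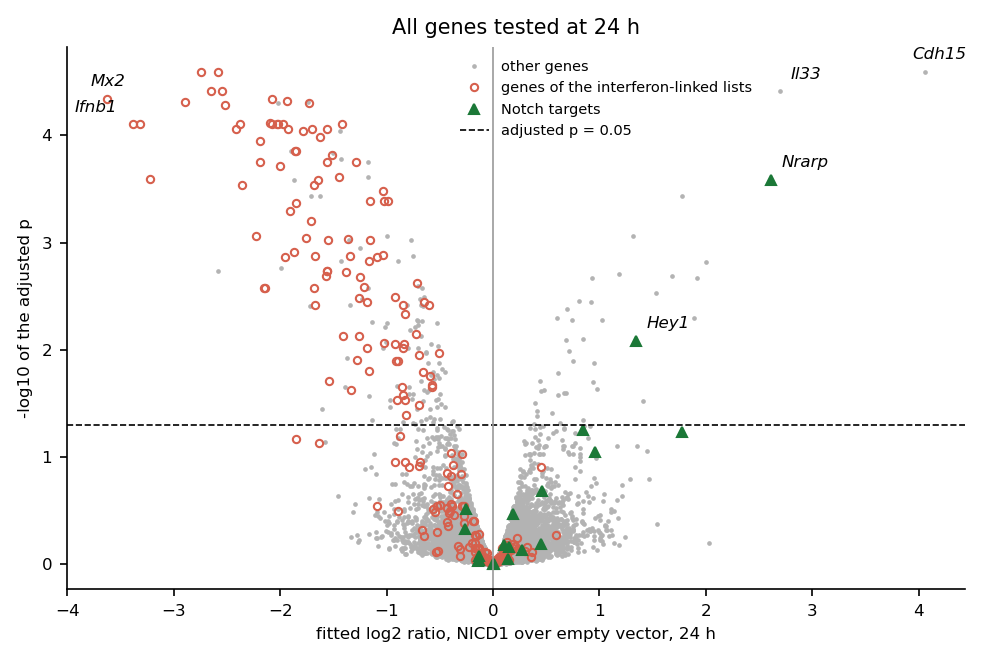
Fitted log2 ratio of NICD1 over EV at 24 h (x axis) against -log10 of the adjusted p (y axis) for the 17449 genes, with genes of the interferon-linked lists as open red circles, Notch targets as green triangles and other genes in grey. Above the dashed line at an adjusted p of 0.05, 196 genes lie left of 0 and 41 right of it, and none of the red circles above it lies to the right.

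Taken over the 12 lists of genes linked to interferon, from the ligands to the effectors, 101 of 216 tested genes were lower and none higher, against 1.12% of all genes lower. The lists were drawn up with earlier results of these data known, so this contrast is a description and no independent result. The remaining 115 did not pass, 72 of them below 0. The median of the 216 genes was -0.62 and the median on single arrays ran from -0.83 to -0.48, so every array showed the fall. In the 47 other lists, 1133 genes were tested, 17 rose and 17 fell, and their median was 0.02. These lists include chemokines, cytokines and cell death genes, whose fallen members are described below as known to be induced by interferon or nucleic acid sensors. They also include a set chosen from these data for its fall at 12 h. The 17 that fell are thus no count of falls outside the interferon response. Genes of the interferon-linked lists made up 51.5% of the 196 lower genes, and 78 lower genes were in no list. That share depends on which genes were placed in which list. The count of 101 lower genes moved to between 80 and 97 when 1 array was left out.

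Among the ligands, 4 of 11 interferon genes fell. Ifna4 (Entrez Gene 15967, chromosome 4) had -3.01, -2.35 and -1.92 as its lowest, median and highest value and a fitted -2.36 ± 0.14 (SE, n = 7; adjusted p = 0.000289). Ifna12 (Entrez Gene 242519, chromosome 4) had -3.07, -1.999 and -1.56 and a fitted -2.22 ± 0.16 (SE, n = 7; adjusted p = 0.000862). Ifnab, an alpha interferon gene read by 2 rows, fell to -1.41 ± 0.16 (SE, n = 7; adjusted p = 0.00747), and its call was lost without replicate 2, with an adjusted p of 0.0503. Ifna2 stood at -1.85 ± 0.34, below 0 on every array but with values spread from -3.16 to -0.48, and did not pass (adjusted p = 0.0675). The alpha interferon genes are near-identical copies on chromosome 4, so their separate values are uncertain. The other 6 ligand genes did not pass and lay between -0.28 and 0.37: Ifnz at -0.28 ± 0.08, Ifna9 at 0.19 ± 0.11, Ifna6 at 0.24 ± 0.18, Ifna13 at 0.03 ± 0.08, Ifng, the type II interferon of lymphocytes, at -0.05 ± 0.12, and Ifne, the epsilon interferon of epithelia, at 0.37 ± 0.30 on 4 arrays. Ifnb1 was thus the lowest of the interferon genes, and the beta and alpha ligands that fell did so on all 7 arrays.

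Genes of the interferon receptor and of JAK-STAT signalling were mostly near 0. Of 27 tested, 2 fell, none rose, and the median was 0.05. Stat2, a subunit of the complex that binds interferon-stimulated response elements, had -2.60, -1.53 and -0.92 and a fitted -1.68 ± 0.17 (SE, n = 7; adjusted p = 0.00382). Socs1, an interferon-induced inhibitor of JAK kinases, had -1.45, -1.23 and -0.66 and a fitted -1.21 ± 0.11 (SE, n = 7; adjusted p = 0.00258). The receptor subunit genes Ifnar1 (0.13 ± 0.08) and Ifnar2 (-0.13 ± 0.06) and the kinase genes Jak1 (0.01 ± 0.07) and Tyk2 (0.13 ± 0.15), given here for their place in the pathway after their values were seen, did not pass, with adjusted p-values from 0.522 to 0.976. The 2 genes that fell are both known to be induced by interferon themselves.

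Of 9 interferon regulatory factor genes, 3 fell. Irf7, which drives the alpha interferon genes, had -3.42, -1.97 and -1.07 and a fitted -2.14 ± 0.20 (SE, n = 7; adjusted p = 0.00266), 4.41-fold lower. Irf5, which acts downstream of Toll-like receptors, fell to -0.64 ± 0.06 (SE, n = 7; adjusted p = 0.0036). Irf9, the DNA-binding partner of STAT2, stood at -0.90 ± 0.14 (SE, n = 7; adjusted p = 0.0294), and its call was lost without any one of replicates 1, 2, 3, 5, 6 and 7, with an adjusted p of up to 0.104. Irf3, which is activated by phosphorylation and is the factor that first turns on Ifnb1, was at -0.05 ± 0.08 (adjusted p = 0.896), and Irf1 at -0.37 ± 0.08 (adjusted p = 0.118). Those values were chosen after they were seen.

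Next came a list of sensors of microbial products with their adaptor and partner genes. Most sense or process nucleic acids, and some, such as Tlr2, sense bacterial products. Of its 31 genes 13 were lower and none higher, with a median of -0.51. Zbp1, which binds left-handed nucleic acid, had -2.64, -2.13 and -1.83 and a fitted -2.19 ± 0.11 (SE, n = 7; adjusted p = 0.000113). Ddx60, a helicase gene linked to RNA sensing, had -2.64, -2.18 and -1.56 and a fitted -2.19 ± 0.12 (SE, n = 7; adjusted p = 0.000176). The DNA-binding genes of the p200 family, Ifi202b and Ifi204, stood at -1.93 ± 0.09 and -1.79 ± 0.08. The RNA sensor genes Ddx58 (RIG-I) and Dhx58 (LGP2) stood at -1.16 ± 0.10 and -1.55 ± 0.12, and Tlr3, an endosomal receptor for double-stranded RNA, at -1.56 ± 0.14. The 2 rows of Dhx58 lay at -2.21 and -0.89, and 1 of them passed singly. Genes that remove or edit nucleic acids fell as well, with Trex1, a DNA exonuclease gene, at -1.42 ± 0.06 and Adar, an RNA editing enzyme gene, at -1.04 ± 0.06. Eif2ak2, the double-stranded RNA-activated kinase PKR of the same list, fell to -1.35 ± 0.11. Adjusted p-values of these 10 genes ran from 7.92e-05 to 0.00186. In contrast, the adaptor genes downstream of the sensors did not pass: Mavs stood at 0.09 ± 0.10, Sting1 at -0.13 ± 0.13 and the DNA sensor gene Cgas at -0.09 ± 0.10, values chosen after they were seen.

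Among the effectors, all 5 tested IFIT genes fell, with a median of -2.41. IFIT proteins bind viral RNA and hold back its translation. Ifit3b had -4.38, -3.05 and -2.72 and a fitted -3.23 ± 0.19 (SE, n = 7; adjusted p = 0.000254), and Ifit1 had -3.52, -2.78 and -2.15 and a fitted -2.89 ± 0.11 (SE, n = 7; adjusted p = 4.87e-05), 7.42-fold lower. Ifit3 stood at -2.41 ± 0.11, Ifit1bl1 at -1.96 ± 0.16 and Ifit2 at -0.98 ± 0.06. Ifit3 and Ifit3b are close copies of each other and their separate values are uncertain. Every IFIT gene was below 0 on all 7 arrays, with Ifit2 the least lowered.

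Oligoadenylate synthetases sense double-stranded RNA and switch on RNase L, which degrades RNA. Of 12 genes of this list, 10 fell and the median was -1.55. Oasl2 had -2.98, -2.38 and -2.04 and a fitted -2.38 ± 0.10 (SE, n = 7; adjusted p = 7.92e-05), and Oas1f had -2.69, -2.03 and -1.72 and a fitted -2.10 ± 0.09 (SE, n = 7; adjusted p = 7.7e-05). Oas1a (-1.71 ± 0.12), Oas2 (-1.68 ± 0.10), Oasl1 (-1.56 ± 0.09) and Oas1c (-1.09 ± 0.09) fell too, with adjusted p-values from 0.000176 to 0.00136. The 2 rows of Oas2 differed widely, at -2.87 and -0.49, and 1 of them passed singly. The lowest and the highest member of the list lay at -2.38 and -0.31. The Oas1 genes are close copies, and their separate values are uncertain.

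Of 43 other antiviral effector genes, 27 fell and none rose, with a median of -1.02. Rsad2, which encodes viperin, an enzyme that makes a chain-terminating nucleotide, had -2.79, -2.62 and -2.30 and a fitted -2.55 ± 0.08 (SE, n = 7; adjusted p = 3.9e-05), 5.85-fold lower. Its neighbour Cmpk2, a nucleotide kinase gene, had -2.26, -2.10 and -1.77 and a fitted -2.08 ± 0.07 (SE, n = 7; adjusted p = 4.58e-05). Sp100, a nuclear body protein gene, stood at -1.72 ± 0.07, Phf11a at -2.03 ± 0.09 and Xaf1, which encodes a partner of an apoptosis inhibitor, at -2.08 ± 0.09. Mx1, the nuclear paralog of Mx2, stood at -1.63 ± 0.28 on 6 arrays and did not pass (adjusted p = 0.0734), a value chosen after it was seen. Further effector genes that fell were Slfn9 (-1.70 ± 0.08), Slfn8 (-1.76 ± 0.13), Samd9l (-1.87 ± 0.15) and Sp110 (-1.97 ± 0.09). In no list were the apolipoprotein L genes Apol9b (-1.44 ± 0.07) and Apol9a (-1.62 ± 0.10), close copies that both fell.

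ISG15 is a ubiquitin-like protein that is joined to other proteins during the interferon response. Of 7 genes of this system 6 fell, and 3 did so without replicate 2. Isg15 itself had -2.13, -1.99 and -1.67 and a fitted -1.94 ± 0.07 (SE, n = 7; adjusted p = 4.81e-05). Usp18, the protease that removes it and also blocks the interferon receptor, had -3.17, -2.44 and -2.24 and a fitted -2.52 ± 0.10 (SE, n = 7; adjusted p = 5.25e-05). The activating enzyme gene Uba7 stood at -1.51 ± 0.08, the conjugating enzyme gene Ube2l6 at -0.91 ± 0.12 (adjusted p = 0.0128), and the ligase genes Herc6 and Trim25 at -1.02 ± 0.12 (adjusted p = 0.00868) and -0.69 ± 0.09 (adjusted p = 0.0111). For Ube2l6 the call was lost without either of replicates 2 and 3, with an adjusted p of up to 0.0742. For Herc6 the call was lost without either of replicates 2 and 5, with an adjusted p of up to 0.0556, and 1 of its 3 rows lay at 0.06. For Trim25 the call was lost without any one of replicates 2, 3 and 6, with an adjusted p of up to 0.0677.

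Interferon-inducible GTPases coat the vacuoles of intracellular pathogens. Of 19 such genes 12 fell, with a median of -1.37, and 12 also fell with any 1 array left out. Igtp had -3.01, -2.43 and -2.15 and a fitted -2.59 ± 0.07 (SE, n = 7; adjusted p = 2.55e-05), and Gbp3 had -3.15, -2.49 and -2.02 and a fitted -2.65 ± 0.08 (SE, n = 7; adjusted p = 3.9e-05), which is 6-fold and 6.26-fold lower. Irgm2 stood at -2.02 ± 0.09, Gbp6 at -1.86 ± 0.10 and Gbp7 at -1.85 ± 0.12. Neither the guanylate-binding proteins nor the immunity-related GTPases held a gene that rose.

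In the TRIM ubiquitin ligase family, 8 of 18 genes listed for their link to interferon fell, with a median of -0.55. Trim30a had -3.02, -2.71 and -2.53 and a fitted -2.74 ± 0.08 (SE, n = 7; adjusted p = 2.55e-05), 6.7-fold lower, and Trim30d, a close copy, stood at -2.15 ± 0.20 (SE, n = 7; adjusted p = 0.00265). Trim21, the cytosolic antibody receptor, stood at -1.56 ± 0.07, Trim34a at -1.26 ± 0.12, Trim12c at -0.83 ± 0.10 and Trim26 at -0.60 ± 0.06. Over all 51 TRIM symbols tested, 9 fell, none rose and the median was -0.07. ADP-ribosyltransferases of the PARP family fell among the members listed as interferon-linked. Of 8 interferon-linked PARP genes 6 fell (median -0.83), with Parp12 at -1.64 ± 0.10 (SE, n = 7; adjusted p = 0.00026), Parp14 at -1.57 ± 0.14 and Zc3hav1, the antiviral protein ZAP, at -0.71 ± 0.07. None of 8 other PARP genes, in a list labelled constitutive, passed (median 0.04). Their largest values were -0.18 ± 0.10 for Parp6 and -0.18 ± 0.10 for Tiparp. Both lists were drawn up with earlier results of these data known, so the label is no result. Parp9, Parp10 and Parp11 stood at -0.85 ± 0.12, -0.82 ± 0.13 and -0.89 ± 0.12. Their calls were lost without 1 of several arrays, with adjusted p-values of up to 0.112 for Parp9, 0.169 for Parp10 and 0.0732 for Parp11, and without replicate 2, 3 or 6 only 3 of the interferon-linked genes passed. The 2 rows of Parp9 lay at -1.49 and -0.21, and 1 of them passed singly.

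Antigen presentation by class I molecules, which shows peptides of the proteasome to T cells, was lowered in part: 7 of 30 genes fell, none rose and the median was -0.40. Tap1, a subunit of the peptide transporter, had -1.85, -1.29 and -0.71 and a fitted -1.26 ± 0.15 (SE, n = 7; adjusted p = 0.00747). The immunoproteasome subunit genes Psmb9, Psmb10 and Psmb8 stood at -1.19 ± 0.12, -0.83 ± 0.09 and -0.84 ± 0.10; for Psmb8 the call was lost without replicate 2, with an adjusted p of 0.062. Cd274, which encodes the inhibitory ligand PD-L1, fell to -1.15 ± 0.09 (SE, n = 7; adjusted p = 0.000949) and the class I gene H2-T22 to -0.73 ± 0.08. The constitutive proteasome gave a matched set from the same particle. None of its 31 genes passed, their median was -0.02 and all lay between -0.11 and 0.17.

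**Figure D3:**
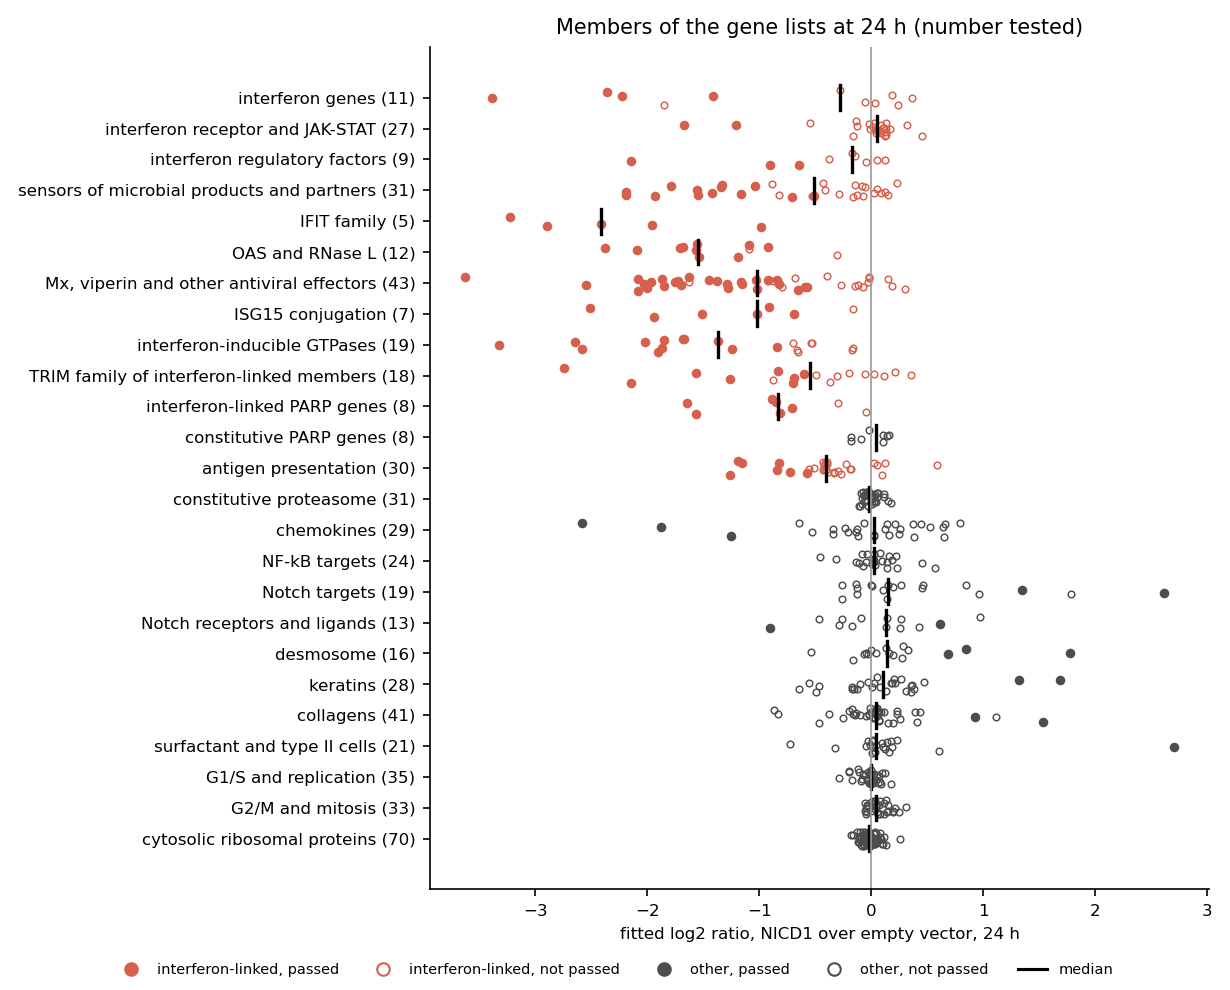
Fitted log2 ratio of NICD1 over EV at 24 h (x axis) for the members of 25 of the gene lists (y axis, with the number of genes tested), in red for interferon-linked lists, filled where the gene passed at an adjusted p under 0.05, with the median of each list as a black bar. The IFIT genes have a median of -2.41 with all 5 filled, while the constitutive proteasome, ribosomal and cell cycle lists hold no filled point.

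Among secreted signals of inflammation, the few that fell are known to be induced by interferon or by nucleic acid sensors. Of 29 chemokine and receptor genes 3 fell and none rose. Cxcl10 and Cxcl11, which attract activated T cells through Cxcr3, had -2.38, -1.98 and -1.50 and -3.60, -2.63 and -1.66 on the arrays. Their fitted values were -1.87 ± 0.11 (SE, n = 7; adjusted p = 0.00026) and -2.58 ± 0.22 (SE, n = 7; adjusted p = 0.00183). Ccl5, the third, stood at -1.25 ± 0.10 (SE, n = 7; adjusted p = 0.00114). Il6, read by 10 rows that all passed singly, had -1.81, -1.55 and -1.17 and a fitted -1.50 ± 0.08 (SE, n = 7; adjusted p = 0.000147). Its 10 rows lie on the same 7 arrays and are no added replicates. Il15 stood at -0.59 ± 0.10 (adjusted p = 0.0425), but its call was lost without any single array, with an adjusted p of up to 0.161. None of 24 genes listed as targets of NF-kB, a factor that drives many inflammatory genes, passed. Their median was 0.03, and the largest values were 0.57 ± 0.18 for Rel and 0.46 ± 0.11 for Nfkbia, the NF-kB inhibitor. In the fit of all 20 arrays, 1 of 23 of them passed, as higher. Il6, Ccl5 and Cxcl10, which fell, were counted in other lists and are not among the 24, so the count covers this list only. Cxcl1 (0.25 ± 0.06), Ccl2 (-0.24 ± 0.09) and Tnf (-0.08 ± 0.16), given after their values were seen, did not pass either. Of 17 cell death genes 3 fell, all of them known to be interferon-inducible: Daxx at -0.89 ± 0.07, Mlkl, the pore-forming protein of necroptosis, at -0.65 ± 0.07, and Casp4 at -0.63 ± 0.08 (adjusted p = 0.0108). For Casp4 the call was lost without any one of replicates 1, 5 and 7, with an adjusted p of up to 0.0573.

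Promoters were searched for the element that the interferon-activated STAT complex is known to bind. In RefSeq promoters of build GRCm38.p6, which span 250 bases before to 50 after each gene's start, the core of the interferon-stimulated response element, GAAA followed by any 2 bases and GAAA again, was searched on both strands. It stood in 52 of the 155 lower genes with a promoter (33.5%), in 2 of 29 higher genes (6.90%) and in 540 of all 13965 tested genes with one (3.87%). Among lower genes of the interferon-linked lists the share was 42 of 80 (52.5%), against 10 of 75 (13.3%) among lower genes outside them and 17 of 87 (19.5%) among interferon-linked genes that did not pass. The 52 lower genes with a match had a median log2 ratio of -1.59, and the 103 without one -0.83. Of the 15 lowest genes, 11 had a promoter in the tables and 9 of those held the core. A gene with several starts counted once if any of its promoters held the letters.

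Windows upstream of the start are shown for genes of different roles, with the matches to this core or its reverse complement in capitals, 5′ to 3′ on the strand of the gene: a ligand (Ifna4), RNA-binding effectors (Ifit1 and Ifit3), viperin (Rsad2), the ubiquitin-like modifier (Isg15), a GTPase (Igtp) and a chemokine (Cxcl10). The windows lay at chr4:88841573-88841742 (plus strand), chr19:34640750-34640848 (plus strand), chr19:34583338-34583451 (plus strand), chr12:26456528-26456607 (minus strand), chr4:156200840-156200931 (minus strand), chr11:58199487-58199555 (plus strand) and chr5:92349058-92349137 (minus strand), in that order.
Ifna4: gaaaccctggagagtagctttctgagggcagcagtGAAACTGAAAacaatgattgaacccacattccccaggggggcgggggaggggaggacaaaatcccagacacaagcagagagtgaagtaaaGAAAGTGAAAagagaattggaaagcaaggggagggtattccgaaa
Ifit1: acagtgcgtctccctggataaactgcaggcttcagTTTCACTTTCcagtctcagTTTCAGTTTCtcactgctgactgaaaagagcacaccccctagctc
Ifit3: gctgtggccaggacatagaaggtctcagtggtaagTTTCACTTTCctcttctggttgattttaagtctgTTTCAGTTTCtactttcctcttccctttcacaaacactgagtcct
Rsad2: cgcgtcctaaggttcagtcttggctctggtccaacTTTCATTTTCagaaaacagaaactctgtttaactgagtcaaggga
Isg15: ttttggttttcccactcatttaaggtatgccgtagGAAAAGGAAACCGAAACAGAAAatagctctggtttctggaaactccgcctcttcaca
Igtp: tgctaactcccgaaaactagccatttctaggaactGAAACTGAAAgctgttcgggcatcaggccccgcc
Cxcl10: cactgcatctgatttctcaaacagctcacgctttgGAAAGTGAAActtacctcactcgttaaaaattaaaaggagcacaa

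The window of Ifit3b was identical to that of Ifit3 over all its 114 bases, so that these 2 genes, at -3.23 and -2.41, share this stretch of promoter. Ifna4, Ifit1 and Ifit3 held 2 matches each in these windows and Isg15 held 3, which overlap one another. Other motifs were less uneven. The Rbpj core TGGGAA stood in 11 of 29 higher genes (37.9%), 56 of 155 lower genes (36.1%) and 3793 of all tested genes (27.2%). The AP-1 site TGANTCA stood in 13.8% of higher, 13.5% of lower and 7.64% of all tested genes, and the NF-kB pattern, GGG and CC with any 5 bases between them, in 86.2%, 65.8% and 64.7%. A match is a description of letters and not a binding site, and the 29 higher genes are few.

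Some lower genes lay next to one another in the genome. In RefSeq order, 63 of the 196 lower genes (32.1%) had another lower gene as the next tested neighbour, in 24 runs. Of the 41 higher genes, 4 (9.76%) lay beside another higher gene. These shares grow with the number of genes counted, so they are not compared. The longest run was of 6 oligoadenylate synthetase genes on chromosome 5 (Oas2, Oas3, Oas1e, Oas1c, Oas1b and Oas1f), with fitted values from -2.10 to -0.92. The call of Oas1b was lost without replicates 1, 2, 3, 5, 6 or 7. The next was the IFIT cluster of 5 genes on chromosome 19, from -3.23 to -0.98. Runs of 3 held Gbp5, Gbp7 and Gbp3 on chromosome 3, Psmb9, Tap1 and Psmb8 on chromosome 17, and Ifi207, Ifi204 and Ifi202b on chromosome 1. The genes of these runs are mostly copies of one another, and signal shared between their probes was not tested.

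Genes were also grouped by the letters of their symbols. Of 313 families with at least 8 tested genes, 58 held a gene that passed and 23 held 2 or more. Over all genes 1.36% passed, and a large family can be counted here at a lower share, as Olfr was with 1 of 695. These 2 counts are therefore no result about families. The families with the largest share of passed members were Oas (8 of 10), Gbp (6 of 10), Ifi (7 of 12), Lgals (4 of 8) and Parp (5 of 12), and in Oas, Gbp, Ifi and Parp all of them were lower. In the Ifi family, Ifi207 and Ifi47 led at -2.02 ± 0.08 and -1.74 ± 0.07. The galectins were split. Lgals3bp, which encodes a secreted galectin-3 binding protein, fell to -1.45 ± 0.08 (SE, n = 7; adjusted p = 0.000245), and Lgals8 to -0.66 ± 0.06. Lgals9 stood at -0.85 ± 0.13 and Lgals7, a galectin of stratified epithelia, at 0.98 ± 0.14, above 0 on all 7 arrays. For Lgals9 the call was lost without any one of replicates 1, 2, 3, 4, 6 and 7, with an adjusted p of up to 0.117. For Lgals7 the call was lost without any one of replicates 1, 2, 3, 5, 6 and 7, with an adjusted p of up to 0.0813.

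Further lower genes lay outside the lists and, Clec2d and Pou3f1 apart, are named after their values were seen. Csprs stood at -1.99 ± 0.17, Batf2, a transcription factor gene of the AP-1 superfamily, at -1.90 ± 0.10, Tent5a, a poly(A) polymerase gene, at -1.43 ± 0.08, Clec2d, a ligand of natural killer cell receptors, at -1.43 ± 0.12, Pou3f1, a POU transcription factor gene, at -1.35 ± 0.14, Mpeg1, which encodes the pore-forming perforin-2, at -1.23 ± 0.12, and Ccrl2, an atypical chemokine receptor gene, at -1.17 ± 0.06. Their adjusted p-values ran from 0.000141 to 0.00382. Batf2 lay between -2.23 and -1.63 and Ccrl2 between -1.35 and -1.003 on the 7 arrays, a narrow spread beside their fitted values.

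Among Notch target genes, 2 of 19 rose and none fell. Nrarp, which binds the nuclear Notch complex and limits it, had 1.67, 2.52 and 3.17 and a fitted 2.62 ± 0.16 (SE, n = 7; adjusted p = 0.00026), 6.13-fold higher. Hey1, a transcriptional repressor, had 0.62, 1.46 and 1.92 and a fitted 1.35 ± 0.16 (SE, n = 7; adjusted p = 0.00824), and its call was lost without replicate 3, with an adjusted p of 0.0516. Heyl, Hes1 and Dtx1 were above 0 on all 7 arrays without passing: Heyl at 1.78 ± 0.32 (adjusted p = 0.0588), Hes1 at 0.96 ± 0.19 (adjusted p = 0.0894) and Dtx1, a ubiquitin ligase gene of the pathway, at 0.85 ± 0.15 (adjusted p = 0.0554). Heyl spread from 0.39 to 3.14, a range wider than that of Nrarp. In the fit of all 20 arrays, 5 of the 19 passed, all of them higher.

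The other Notch targets lay closer to 0. Gata3 was at 0.46 ± 0.12, Hes5 at 0.45 ± 0.27 with 1 array at 2.32, Il2ra at 0.27 ± 0.21, Ccnd1 at 0.19 ± 0.06, Bcl2 at 0.15 ± 0.10, Hey2 at 0.14 ± 0.23, Hes6 at 0.10 ± 0.06 and Myc at 0.01 ± 0.07. Values below 0 were those of Hes2 (-0.26 ± 0.08), Notch3 (-0.26 ± 0.11), Hes3 (-0.14 ± 0.29), Snai2 (-0.13 ± 0.14), Ptcra (-0.13 ± 0.23) and Cdkn1a (-0.00 ± 0.07). Several of these, such as Ptcra and Il2ra, are known as targets in T cells. The median of the 19 genes was 0.15 and the median on single arrays ran from 0.14 to 0.25, against 0.00 for all genes.

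Of 13 receptors and ligands, 1 rose and 1 fell. Notch1 had 0.30, 0.66 and 0.93 on the arrays and a fitted 0.62 ± 0.09 (SE, n = 7; adjusted p = 0.0266), a 1.53-fold ratio, and its call was lost without any single array, with an adjusted p of up to 0.0982. Its 11 rows lay between 0.42 and 1.01, and 1 of them passed singly. The sources used here do not say which rows lie in the domain that the plasmid carries, so plasmid and own transcripts cannot be told apart. Dll1, a ligand gene that Hes repressors are known to hold down where Notch is active, had -1.28, -0.99 and -0.37 and a fitted -0.90 ± 0.13 (SE, n = 7; adjusted p = 0.0218). For Dll1 the call was lost without any one of replicates 1, 2, 4, 5 and 6, with an adjusted p of up to 0.102. The remaining members, with Notch3 given above, did not pass. Notch2 stood at 0.13 ± 0.08, Notch4 at 0.26 ± 0.32, Jag1 at 0.42 ± 0.25, Jag2 at 0.26 ± 0.08, Dll3 at -0.17 ± 0.15, Dll4 at 0.97 ± 0.73 over 5 arrays, Dlk1 at 0.14 ± 0.15, Dner at -0.29 ± 0.16, Cntn1 at -0.09 ± 0.08 and Cntn6 at -0.47 ± 0.25.

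None of 24 genes for Notch processing and modification passed, with Mfng, a fucose-extending glycosyltransferase gene, at -0.80 ± 0.23 and the convertase gene Furin at 0.33 ± 0.09. None of 19 genes of the nuclear complex passed either. Tle1, a corepressor, stood at 0.25 ± 0.06 and Maml3, a Mastermind gene, at -0.48 ± 0.59 over 4 arrays. The medians of these lists were 0.04 and 0.03.

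Cdh15 was the highest gene of the experiment. Cdh15 (Entrez Gene 12555, chromosome 8) encodes M-cadherin, an adhesion molecule known from skeletal muscle and its stem cells. It had 3.61, 4.04 and 4.38 as its lowest, median and highest value and a fitted 4.06 ± 0.12 (SE, n = 7; adjusted p = 2.55e-05), 16.6-fold higher with NICD1. None of the other 17 tested genes with a Cdh symbol passed. Cadherin genes with other symbols were not in that count, and 1 of them, Dsg2, is given below among the higher genes. None of 19 skeletal and smooth muscle genes passed, and their median was 0.03, with Ckm, the muscle creatine kinase gene, at -0.67 ± 0.48 over 5 arrays and Myh3 at -0.38 ± 0.38.

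Genes of desmosomes and of stratified epithelia were among the higher ones. Of 16 desmosome genes 3 rose and none fell: Pkp1, the desmosomal plaque protein plakophilin 1, had 1.03, 1.80 and 2.46 and a fitted 1.78 ± 0.11 (SE, n = 7; adjusted p = 0.000366), 3.43-fold higher, Perp stood at 0.85 ± 0.10 (SE, n = 7; adjusted p = 0.00794) and Dsg2, a desmosomal cadherin gene, at 0.69 ± 0.10 (adjusted p = 0.0255). For Dsg2 the call was lost without any one of replicates 1, 2, 3, 5, 6 and 7, with an adjusted p of up to 0.0948. Of 28 keratin genes 2 rose, Krt79 with 1.18, 1.65 and 2.41 and a fitted 1.69 ± 0.15 (SE, n = 7; adjusted p = 0.00207), and Krt16, a keratin of stressed epidermis, with 0.93, 1.38 and 1.57 and a fitted 1.32 ± 0.10 (SE, n = 7; adjusted p = 0.000862). Scel, which encodes sciellin of the cornified envelope, stood at 0.60 ± 0.06, a gene named after its value was seen. None of 10 hemidesmosome and laminin genes passed, with Lamb3 at 0.77 ± 0.15 (adjusted p = 0.0732). None of 22 tight junction genes passed, and Cdh1, the epithelial cadherin gene counted with them, stood at 0.42 ± 0.12 (adjusted p = 0.267). Basal cell markers held no gene that passed among 11.

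Of 41 collagen genes 2 rose and none fell, both chains of collagen VI that lie on chromosome 10. Col6a1 had 0.59, 1.57 and 2.34 and a fitted 1.54 ± 0.15 (SE, n = 7; adjusted p = 0.00293), and Col6a2 had 0.60, 1.01 and 1.17 and a fitted 0.93 ± 0.08 (SE, n = 7; adjusted p = 0.00216). Other genes of the extracellular matrix were Adamts9, a secreted protease gene, at 0.69 ± 0.07, and Loxl1, which crosslinks elastin and was named after its value was seen, at 0.61 ± 0.08. Loxl1 was above 0 on all 7 arrays, but its call was lost without any one of replicates 2, 3, 4, 5 and 6, with an adjusted p of up to 0.0897. Ntn4, which encodes the laminin-related guidance factor netrin 4, stood at 0.93 ± 0.09 (SE, n = 7; adjusted p = 0.00361) and was the only one of 60 netrin, semaphorin, ephrin and Slit genes that passed.

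Secreted signals that rose were led by Il33 (Entrez Gene 77125, chromosome 19), an alarmin of barrier epithelia that is kept in the nucleus and released on damage. It had 2.46, 2.65 and 3.09 and a fitted 2.70 ± 0.09 (SE, n = 7; adjusted p = 3.9e-05), 6.51-fold higher, a spread of less than 1 log2 unit. Nts, which encodes the peptide neurotensin, had 1.43, 2.06 and 2.82 and a fitted 2.01 ± 0.17 (SE, n = 7; adjusted p = 0.00152). It was the only member of the 16 tested neuroendocrine genes that passed. Rspo1, a secreted enhancer of Wnt signalling, rose to 1.03 ± 0.11 (SE, n = 7; adjusted p = 0.00525), while none of 36 Wnt targets and feedback genes passed (median 0.04). Il33 was the only one of 21 type II cell genes that passed. The surfactant protein genes Sftpc and Sftpb, given after their values were seen, stood at 0.10 ± 0.12 and 0.00 ± 0.13, and Lyz2, a lysozyme gene, at -0.72 ± 0.14 (adjusted p = 0.0715).

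Rhov had 0.95, 2.13 and 2.38 and a fitted 1.92 ± 0.17 (SE, n = 7; adjusted p = 0.00213). Oacyl, a gene of an acyltransferase family, had 1.30, 1.78 and 2.93 and a fitted 1.89 ± 0.20 (SE, n = 7; adjusted p = 0.00502). Cbfa2t3, a corepressor of the ETO family, had 0.56, 1.41 and 2.58 and a fitted 1.41 ± 0.22 (SE, n = 7; adjusted p = 0.0299), but its call was lost without any single array, with an adjusted p of up to 0.089. Wfdc3, a gene of the whey acidic protein family, stood at 1.19 ± 0.10 (SE, n = 7; adjusted p = 0.00197), yet its 2 rows disagreed, at 2.48 and -0.10. Fosb, an AP-1 subunit gene, stood at 0.94 ± 0.13 (SE, n = 7; adjusted p = 0.0199). For Fosb the call was lost without any one of replicates 1, 2, 3, 5 and 6, with an adjusted p of up to 0.0844. Ahr, the ligand-activated aryl hydrocarbon receptor, rose to 0.81 ± 0.08 (SE, n = 7; adjusted p = 0.00347), with all 10 of its rows between 0.78 and 0.84, and the membrane scaffold gene Stom to 0.69 ± 0.08. For Stom the call was lost without replicate 2, with an adjusted p of 0.0543. Ahr and Stom were named after their values were seen. Akr1c14, an aldo-keto reductase gene, stood at 0.67 ± 0.10 (adjusted p = 0.0251), and its call was lost without any one of replicates 1, 2, 3, 4, 5 and 7, with an adjusted p of up to 0.116. The odorant receptor gene Olfr1184 stood at 0.95 ± 0.12 (adjusted p = 0.0131), and its call was lost without any one of replicates 2, 5 and 7, with an adjusted p of up to 0.0758.

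A set of 8 genes that earlier results of these data had singled out for their fall at 12 h was lower at 24 h in 6 members, so the direction is no independent result. Hspb9, a small heat shock protein gene, had -2.42, -1.88 and -0.96 and a fitted -1.72 ± 0.18 (SE, n = 7; adjusted p = 0.00394). Zscan10, a zinc finger gene of pluripotent cells, had -1.77, -1.51 and -0.98 and a fitted -1.36 ± 0.10 (SE, n = 7; adjusted p = 0.000947). Sbk1, a kinase gene, stood at -1.18 ± 0.11 (SE, n = 7; adjusted p = 0.00265), and Igkv4-72, an immunoglobulin segment, at -1.13 ± 0.12. Gna15 and Klk4 stood at -1.37 ± 0.18 (adjusted p = 0.012) and -1.003 ± 0.12 (adjusted p = 0.00838). For Gna15 the call was lost without either of replicates 2 and 5, with an adjusted p of up to 0.0701. For Klk4 the call was lost without replicate 2, with an adjusted p of 0.0524. Each of these genes was read by 1 row, so no second row could bear on them.

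Programmes of growth and metabolism held few or no genes that passed, and over all genes the share was 1.36%. None did among 35 genes of G1/S and replication (median 0.00), 33 of G2/M and mitosis (0.05), 16 cyclins D and CDK inhibitors (0.10), 70 cytosolic ribosomal proteins (-0.02), 77 mitochondrial ribosomal proteins (-0.03), 74 genes of the respiratory chain and ATP synthase (0.04), 20 of cholesterol synthesis (0.10), 22 of fatty acid synthesis (0.07) and 31 of hypoxia and glycolysis (0.07). The largest values in the cell cycle lists were 0.31 ± 0.15 for Kif11, a spindle motor gene, and -0.29 ± 0.07 for Mcm10, a replication initiation gene. Several lists leaned to 1 side of 0, where 51.3% of all genes lay above it. Above 0 were 18 of 20 cholesterol synthesis genes and 56 of 74 respiratory chain genes, and 55 of 77 mitochondrial ribosomal genes were below. Of 27 genes of the ATF4, CHOP and amino acid response, 26 were below 0, with a median of -0.10. Slc7a3, a cationic amino acid transporter gene, was the one that passed, at -0.66 ± 0.10 (adjusted p = 0.03). Its call was lost without any one of replicates 1, 3, 4, 5, 6 and 7, with an adjusted p of up to 0.119. Single members passed in the lists of p53 targets (Perp, among 25), NRF2 targets (Akr1c14, among 26), heat shock and chaperones (Hspb9, among 22) and the immediate early response (Fosb, among 38), all named above. None of 15 complement and acute phase genes and none of 13 cathepsin genes passed. A p that misses the threshold does not show that a gene was unchanged.

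Markers of other cells gave no gene that passed among 14 type I, 12 club and goblet, 13 ciliated, 11 macrophage, 9 endothelial and 8 fibroblast genes. Over all genes 1.36% passed, so lists this short are not set apart by holding none. Their medians lay between -0.09 for macrophages and 0.22 for fibroblasts. Scgb1a1, the club cell secretory protein gene, stood at 0.77 ± 0.17 (adjusted p = 0.123), Col3a1, a fibrillar collagen gene of fibroblasts, at 1.11 ± 0.34 (adjusted p = 0.307), Foxj1, the master regulator of cilia, at 0.35 ± 0.24 (adjusted p = 0.695), and Adgre1, the macrophage marker F4/80, at -0.42 ± 0.26 (adjusted p = 0.654). None of 27 genes of the mesenchymal transition passed, with Twist1 at -0.62 ± 0.09 (adjusted p = 0.0663) over 5 arrays and Snai1 at 0.46 ± 0.11 (adjusted p = 0.14).

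The 24 h response was then set beside 12 h and 48 h in a fit of all 20 arrays, in which 12 h replicate 3 and 48 h replicate 3 were multiplied by -1. As deposited, the ratios of these 2 arrays ran opposite to the other arrays: over the genes that passed at 24 h they correlated with the 24 h values at -0.44 and -0.88, against 0.29 to 0.85 for the other 11 arrays, and Nrarp stood at -1.93 and -1.58 on them. Results at the other times that rest on this turn are given without those arrays where they change. The difference between 24 h and 12 h passed for 153 of 17051 genes (0.897%), 131 of them more negative at 24 h (0.768%) and 22 more positive (0.129%). Among the genes that were lower at 24 h, 195 were in this fit. Of these, 126 passed for the difference, 121 with a more negative ratio at 24 h and 5 with a more positive one. Their medians were -0.04 at 12 h, -1.09 at 24 h and -0.95 at 48 h. Of the 41 higher genes, 4 passed for the difference, all more positive, with medians of 0.33, 0.83 and 0.90. These genes were chosen for their 24 h values, which also enter the difference. Their medians at 24 h and the counts and signs of their differences are therefore a description and no independent result. Of the interferon-linked genes in this fit, 94 of 210 passed for the difference with a more negative ratio at 24 h and none with a more positive one. Their medians were 0.00 at 12 h, -0.62 at 24 h and -0.60 at 48 h. The interferon-linked lists were drawn up with earlier results of these data known, and 101 of their genes had passed as lower at 24 h. These counts are therefore no independent result either.

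**Figure D4:**
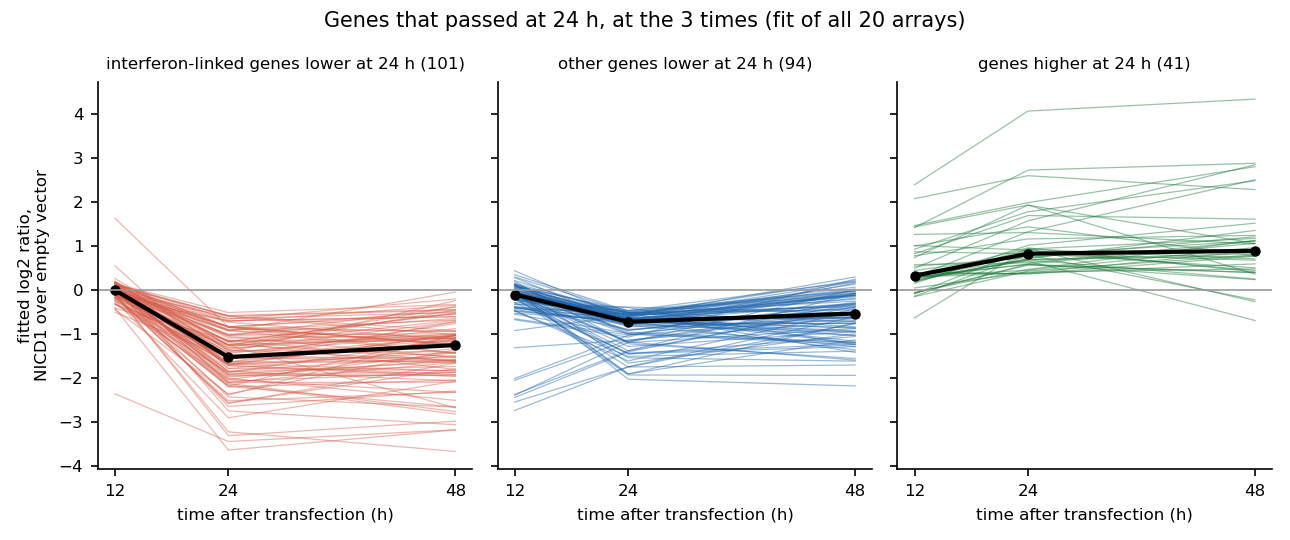
Fitted log2 ratio of NICD1 over EV (y axis) at 12, 24 and 48 h after transfection (x axis) in the fit of all 20 arrays, 1 line per gene, for 101 interferon-linked genes lower at 24 h, 94 other genes lower at 24 h and 41 genes higher at 24 h, with the median in black. The medians of the interferon-linked genes run 0.00, -1.52 and -1.25 over the 3 times, and those of the higher genes 0.33, 0.83 and 0.90.

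The 5 most negative differences were those of antiviral genes. Mx2 stood at -0.41 ± 0.17 at 12 h, -3.63 ± 0.16 at 24 h and -3.17 ± 0.16 at 48 h, and 24 h differed from 12 h by -3.22 ± 0.23 (SE; adjusted p = 4.43e-08). Iigp1 had -0.06 ± 0.22, -3.31 ± 0.20 and -2.97 ± 0.20 at the 3 times, with a difference of -3.24 ± 0.30 (SE; adjusted p = 1.65e-06). Ifit3b, Trim30a and Gbp3 differed by -3.14 ± 0.44 (SE; adjusted p = 0.000461), -2.93 ± 0.16 (SE; adjusted p = 2.23e-09) and -2.67 ± 0.19 (SE; adjusted p = 3.71e-08). All 5 lay between -0.41 and 0.19 at 12 h and below -2.2 at both later times. Ifnb1 was the exception among the lowest genes, at -2.35 ± 0.32, -3.44 ± 0.30 and -3.17 ± 0.30, and its difference between 24 h and 12 h did not pass, at -1.08 ± 0.43 (SE; adjusted p = 0.671). Parp10 had 1.64 ± 0.23, -0.83 ± 0.21 and -0.48 ± 0.21, a difference of -2.47 ± 0.31 (SE; adjusted p = 6.25e-05), and its value at 24 h did not pass in this fit. Its difference was singled out after its values were seen.

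In the other direction, Cdh15 stood at 2.40 ± 0.17, 4.08 ± 0.16 and 4.35 ± 0.16, and 24 h exceeded 12 h by 1.68 ± 0.24 (SE; adjusted p = 0.000303). Fosb, at -0.08 ± 0.15, 0.94 ± 0.14 and 0.71 ± 0.14, differed by 1.02 ± 0.20 (SE; adjusted p = 0.0128), and Olfr1184 by 1.57 ± 0.32 (SE; adjusted p = 0.0177). Sbk1 and Gna15 were less low at 24 h than at 12 h. Sbk1 had -2.38 ± 0.14, -1.18 ± 0.13 and 0.02 ± 0.13, with a difference of 1.20 ± 0.19 (SE; adjusted p = 0.00082), and Gna15 differed by 1.04 ± 0.22 (SE; adjusted p = 0.0185), with a call lost without the 2 turned arrays (adjusted p = 0.08). Nrarp was already high at 12 h, with 2.08 ± 0.20, 2.61 ± 0.19 and 2.29 ± 0.19, and its difference between 24 h and 12 h, 0.52 ± 0.28 (SE; adjusted p = 0.983), did not pass.

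The difference between 48 h and 24 h passed for 350 genes (2.05%), of which 4 had been higher and 35 lower at 24 h. The count of 350 was 8 without 48 h replicates 5, 6 and 7 together and 1994 without the 2 turned arrays. Of the genes that passed at 24 h, Rhov, Akr1c14 and Sbk1 held under both of these and are named for that. Rhov stood at 1.94 ± 0.14 at 24 h and 0.37 ± 0.14 at 48 h, a difference of -1.57 ± 0.19 (SE; adjusted p = 0.000845). Akr1c14 stood at 0.67 ± 0.11 and -0.69 ± 0.11, a difference of -1.35 ± 0.16 (SE; adjusted p = 0.000625), with opposite signs at the 2 times. Sbk1 had returned to 0.02 ± 0.13 at 48 h, with a difference of 1.20 ± 0.18 (SE; adjusted p = 0.0045). Oasl2, at -2.38 ± 0.14 and -1.02 ± 0.14, differed by 1.36 ± 0.20 (SE; adjusted p = 0.00359), with a call lost without those 3 arrays (adjusted p = 0.078). The lowering of interferon-linked genes was present at both times. Of the 210 genes in this fit, 18 passed for a more positive and 4 for a more negative ratio at 48 h. Over all 17051 genes the counts were 182 and 168. Only 8 genes in all passed without 48 h replicates 5, 6 and 7, so most of the 18 and 4 calls rest on those arrays.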

How the data were processed

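The deposited table held log2 ratios that the authors had made from 2-colour Agilent arrays, 45220 rows by 20 arrays. Per the labels' protocols, total RNA was isolated with RNeasy kits and labelled with QuickAmp in 2 colours, and the tool named in the submitters' processing notes is limma, with no version. Background correction, centring and the sign of the ratios as deposited are not stated, and scanner intensities were not used here. The 2 turned arrays of 12 h and 48 h were identified by Nrarp and by their correlation with the other arrays.

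Of the rows, 33653 had 1 gene symbol in the platform annotation, 56 had several and 11511 were not listed. The named rows of a gene were averaged, which gave 17449 genes from 29703 rows, 10159 from 1 row and 7290 from several. Rows of a gene read the same RNA on the same arrays, so their agreement adds no replicates. A row needed values on at least 4 of the 7 arrays at 24 h and at least 2 in each dye orientation. limma 3.58.1 in R 4.3.3 fitted each gene (lmFit and eBayes) with a dye term coded as 1 and -1, and the intercept was tested, two-sided, with Benjamini-Hochberg adjustment over all genes. A gene passed at an adjusted p under 0.05. All p-values of the report come from this fit or from the fit of all 20 arrays, and n is the number of arrays. Differences between times came from the fit of all 20 arrays with 3 time terms and a dye term. The depth of an array is not given, and 7 arrays limit the precision (median SE 0.11). In data simulated for the 24 h comparison on 17449 genes, 71% of genes changed by 1 log2 unit and 86% of those changed by 2 were recovered, and 4.27% of calls were false.

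The members and the gene lists were chosen with earlier results of these data known. Genes were named by a rule: the 15 highest and 15 lowest that passed with 1 sign on every array, up to 6 members per list by adjusted p, or 2 by size where fewer than 2 passed, all members of the Notch target, Notch receptor and ligand, and interferon gene lists, and the extremes of the differences between times and of the symbol families. Lists were described by counts and medians and not tested. Promoter sequences are RefSeq's, build GRCm38.p6, and 13965 of the 17449 genes had one.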

Additional observations from a re-analysis of the deposited data

Results flagged for a closer look

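In 13 of 211 genes tested for it, 1 array at 24 h lay far from the others of its gene by Dixon's criterion (6.16%), while chance flags about 1 in 20 groups. Among the genes that fell, the distant array was the lowest in Ifit3b (replicate 3 at -4.38, the others from -3.28 to -2.72), Usp18 (replicate 3 at -3.17, the others from -2.55 to -2.24), Csprs (replicate 3 at -3.26, the others from -2.03 to -1.41), Sp110 (replicate 4 at -2.45) and Ifi207 (replicate 5 at -2.44). It was the highest in Ifi204 (replicate 4 at -1.31, the others from -2.01 to -1.74), Clec2d (replicate 5 at -0.63, the others from -1.75 to -1.34) and Oas1b (replicate 4 at -0.12, the others from -2.17 to -1.37). In these 8 genes every array stayed below 0. Rhov, which rose, had replicate 3 at 0.95 and the others from 1.81 to 2.38. Among genes that did not pass, Hes5 had replicate 4 at 2.32 and the others from -0.03 to 0.45, Ckm had replicate 2 at -2.89 and the others from -0.36 to -0.03, Dll3 had replicate 7 at 0.80 and the others from -0.45 to -0.06, and Ifng had replicate 4 at -0.64 and the others from -0.15 to 0.19.

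The response differed between 24 h and 12 h in the fit of all 20 arrays (limma). Ratios were more negative at 24 h by -3.24 for Iigp1, -3.22 for Mx2, -3.14 for Ifit3b, -2.93 for Trim30a, -2.67 for Gbp3 and -2.47 for Parp10. They were more positive at 24 h by 1.68 for Cdh15, 1.57 for Olfr1184, 1.20 for Sbk1, 1.04 for Gna15 and 1.02 for Fosb. Between 48 h and 24 h the differences were 1.36 for Oasl2, 1.20 for Sbk1, -1.57 for Rhov and -1.35 for Akr1c14.

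Rows with no gene name in the annotation were outside every comparison above. Of 9054 such rows fitted at 24 h, 43 passed, 41 lower and 2 higher, with fitted values from -3.24 to 1.57.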

How the results depend on the processing

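Of the 237 genes, 1 (Wfdc3, at -0.10) changed sign when 1 row stood for each gene and 1 with the arrays of NICD1 in Cy3 alone, and none did under the other alternatives run at 24 h. The count of 237 genes was 198 to 306 under 9 other settings of the 24 h fit, from arrays scaled to the same spread to array quality weights, and that of interferon-linked lower genes 91 to 108, against 101. In the fit of all 20 arrays they were 284 and 111. With 1 array left out the counts ran from 156 to 196 and from 80 to 97. With the 3 arrays of NICD1 in Cy5 alone, 8 genes passed, 6 of them interferon-linked and lower, and with the 4 of NICD1 in Cy3, 88 and 52, with fewer arrays in the fit. No interferon-linked gene rose under any of these settings.

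The labels do not say whether a replicate number marks a shared batch across times. After time means and dye effects were removed, 1 of 19 pairs of arrays that share a number correlated above 0.1 (median 0.006). Of 114 pairs with other numbers, 18 did (median -0.004). Such correlations cannot show that arrays of equal number share no batch. With the replicate number as a block, 129 genes passed for 24 h against 12 h, against 153 without it, and 8 for 48 h against 24 h, against 350. Without the 2 turned arrays these counts were 131 and 1994, and without 48 h replicates 5, 6 and 7 they were 178 and 8. The cause of the last moves was not tested. Those 3 arrays had the widest spread of the series, with SDs of 0.83 to 0.93. Gna15 lost its difference between 24 h and 12 h under the block (adjusted p = 0.0941). Low signals cannot be told from high ones in a table of ratios, so signal over background was not a filter here.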

Other observations

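Some further genes passed at 24 h, and they are named here after their values were seen. Surface antigen genes of the Ly6 cluster on chromosome 15 were lower, with Ly6c2 at -0.70 ± 0.08 (adjusted p = 0.00536) and Ly6c1 at -0.63 ± 0.08 (adjusted p = 0.0105). For Ly6c1 the call was lost without either of replicates 1 and 2, with an adjusted p of up to 0.062. Bst2, which encodes tetherin and holds budding virus at the cell surface, stood at -1.38 ± 0.12 (adjusted p = 0.0019), between -2.10 and -0.85 on the 7 arrays. Tgtp1, an immunity-related GTPase gene, stood at -1.68 ± 0.14 (adjusted p = 0.00133), and Phf11d, a neighbour of Phf11a, at -2.002 ± 0.11 (adjusted p = 0.000192). The 2 rows of Tgtp1 lay at -2.38 and -0.97, and 1 of them passed singly. Lower by less than 1 log2 unit were Ppm1k, a mitochondrial phosphatase gene (-0.71 ± 0.08), and Tmem106a (-0.69 ± 0.07). Tlr2, the receptor for bacterial lipopeptides, was read by 10 rows and stood at -0.51 ± 0.06 (adjusted p = 0.0108). For Tlr2 the call was lost without any one of replicates 1, 2 and 6, with an adjusted p of up to 0.062.

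Among higher genes, Tenm4, a teneurin gene of cell contacts, stood at 0.75 ± 0.08 (adjusted p = 0.00525), although its 3 rows ran from -0.33 to 1.54.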
